A study of Mus musculus with 2 samples.

Results

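The factors described here are 10 genes at the core of the heart's transcription program, chosen by symbol: Gata4, Gata5, Gata6, Nkx2-5, Tbx20, Hand1, Hand2, Zfpm2, Srf and Myocd. All 10 were found among the 55536 annotated genes of the tables, of which 22028 are protein-coding. RNA came from heart tissue of male B6CASTF1/J mice, the F1 hybrid of C57BL/6J and CAST/EiJ, at 14 days of age. It was measured by total RNA sequencing of ribosomal-RNA-reduced, stranded libraries made from 300 ng of RNA with spike-in RNAs, in 2 libraries labelled as biological replicates 1 and 2. The labels name 3 males, give both libraries the same donor label and do not say whether animals were pooled, so the spread between the libraries may be partly technical. There was 1 group with no treatment, no other genotype and no other age, so the results below are levels, not responses.

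GATA factors are zinc-finger proteins that bind the letters GATA in DNA, and GATA4 and GATA6 act together with the homeodomain factor NKX2-5 and the T-box factor TBX20 on the promoters of heart muscle genes. HAND1 and HAND2 are basic helix-loop-helix factors known from the left and right ventricles of the forming heart. FOG2, the product of Zfpm2, binds GATA factors and modulates them without being a classic DNA-binding factor itself. SRF binds the CArG box of muscle and immediate early genes, and myocardin, the product of Myocd, is its coactivator in heart and smooth muscle. The set is therefore 8 DNA-binding factors and 2 cofactors.

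The first set of deposited tables, with expected counts per gene and transcript, held 39334380 and 46391250 counts and gives the main values. The second set, with estimated counts per transcript, was summed per gene and is named where it is used. Levels are given in TPM, a share of all transcripts that divides reads by transcript length and can be compared between genes. The 5 cardiomyocyte markers lay between 393 TPM for Ryr2 and 10130 TPM for Myh6 on average, and the 5 lung markers were at 0.13 TPM or less on average. The libraries differed in other markers. The 8 atrial markers summed to 1660 TPM in replicate 1 and 521 TPM in replicate 2, of which Nppa alone held 841 and 242 TPM. The 10 T cell and thymus markers summed to 1.63 and 56.9 TPM, with Rag2 and Ptcra at 0 in replicate 1. The 5 brown fat markers summed to 46.3 and 28.9 TPM. Among them Ucp1, at 9.76 and 0.32 TPM, differed most, while Cidea was at 25.8 and 22.6 TPM. Averaged over the libraries, endothelial markers ran from 22.5 TPM for Emcn to 99.2 TPM for Cdh5, endocardial from 0.185 for Hapln1 to 40.3 for Vwf, and fibroblast from 8.99 for Tcf21 to 214 for Col1a1. Smooth muscle markers ran from 2.76 TPM for Cnn1 to 162 TPM for Acta2, epicardial from 2.36 for Tbx18 to 12.6 for Msln, and atrial from 6.11 for Gja5 to 541 for Nppa. The erythroid marker Hbb-bs was at 10488 TPM. Brown fat markers ran from 2.34 TPM for Cidec to 24.2 TPM for Cidea, and T cell markers from 0.16 for Ptcra to 5.99 for Rag1. The tissue holds many cell types, so a lower level can mean fewer cells of a type or less RNA per cell, which cannot be told apart here.

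Of the 10 factors, 8 were at 1 TPM or more in both libraries, Gata5 stood below that level in both, and Hand1 had no counts. Of all 22028 protein-coding genes, 11421 reached 1 TPM in both libraries. The median TPM of the 10 factors was 35.6 in replicate 1 and 37.9 in replicate 2, against 1.42 and 1.54 over all protein-coding genes. Tbx20, Gata6, Gata4, Myocd and Srf formed a narrow upper band, and their means ran from 42.7 to 47.8 TPM. Nkx2-5 and Hand2 followed near 30 TPM, with means of 31.5 and 28.4. Zfpm2 came next at 8.03 ± 0.163 TPM (SD, n = 2), and Gata5 at 0.425 ± 0.00707 TPM (SD, n = 2).

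**Figure D1:**
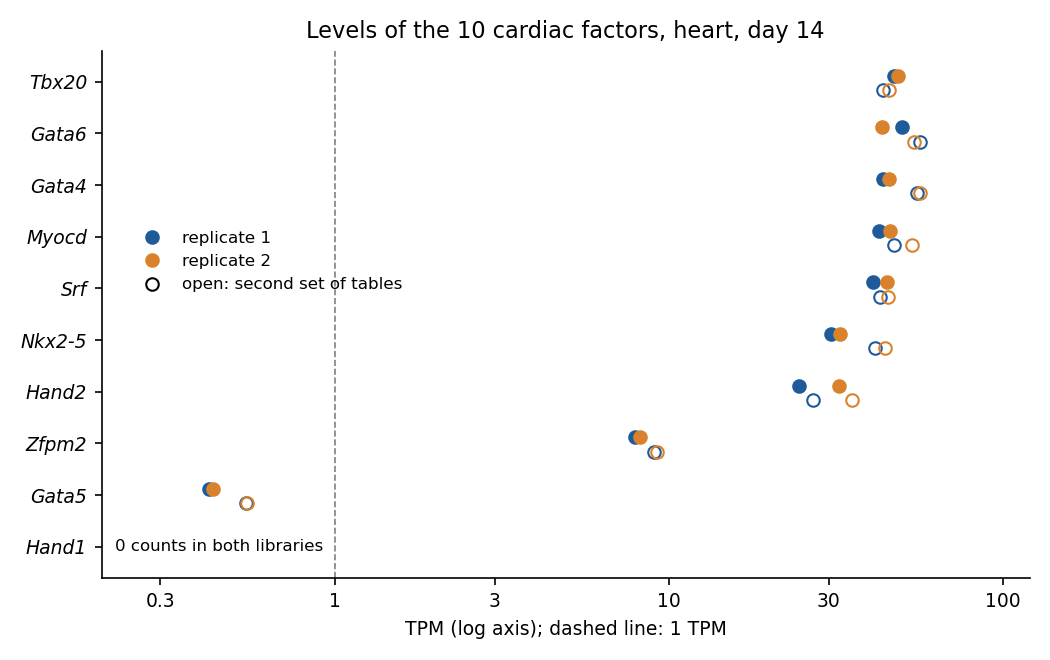
TPM of each factor on a log axis, ordered by mean. Filled points are the first set of tables, open points the second, blue replicate 1 and orange replicate 2. The 5 factors of the upper band have means of 42.7 to 47.8 TPM, and Gata5 lies left of the dashed line at 1 TPM.

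Within the upper band each gene overlapped its neighbour in the order. Between neighbours, both values of the higher gene exceeded both values of the lower gene in 4 of 9 steps: Srf over Nkx2-5, Hand2 over Zfpm2, Zfpm2 over Gata5 and Gata5 over Hand1. The other 5 steps overlapped, including Nkx2-5 over Hand2. The second set of tables, a different estimate from the same libraries, put Gata4 first at a mean of 55.8 TPM, with Tbx20 at 44.6 TPM below Gata6 and Myocd. There the step from Srf to Nkx2-5 was lost, with Srf at 42.8 and 45.1 TPM and Nkx2-5 at 41.3 and 44.2 TPM. Both values of Nkx2-5 lay above those of Hand2, at 26.9 and 35.2 TPM. The upper band stood high among the 11421 detected coding genes, above 87.2% of them for Srf and 88.7% for Tbx20. Zfpm2 exceeded 43.3% of them, which places it near the middle.

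Gata4 (ENSMUSG00000021944.15, chr14:63198922-63271692, minus strand, mm10) had 43.7 TPM in replicate 1 and 45.4 TPM in replicate 2, from 3464 and 4338 counts. The values lay close together, with a mean of 44.6 ± 1.20 TPM (SD, n = 2). Its annotated full-length coding transcripts differ by 3 bases at the start of exon 3, so that Gata4-201 encodes 442 amino acids and Gata4-202 encodes 441. The 2 junctions are shown because the deposited tables divide the gene's RNA between these forms. The capitals mark the 3 added bases. The exon is chr14:63204589-63204758 in Gata4-201 and chr14:63204589-63204755 in Gata4-202, and each line also shows 24 bases on either side.
Gata4-201 junction: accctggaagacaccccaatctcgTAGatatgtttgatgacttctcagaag
Gata4-202 junction: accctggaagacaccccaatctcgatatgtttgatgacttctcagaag

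The shorter form led in the first tables, with 22.2 and 21.8 TPM for Gata4-202 against 7.78 and 8.96 TPM for Gata4-201. The longer form thus held 26.0% and 29.2% of the pair. In the second tables it held 41.0% in replicate 1 and 53.0% in replicate 2, so the division between the forms depended on the table. The transcripts also differ at their ends (3400 and 3374 bases), so the share is no direct count of reads over the junction. A shorter form with 236 codons, Gata4-203, was at 4.14 and 5.33 TPM. A further 3 transcript models with incomplete coding ends held 22.0% and 20.7% of the gene's TPM in the first tables, but 4.64% and 4.37% of its counts.

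Gata5 (ENSMUSG00000015627.5, chr2:180325133-180334699, minus strand, mm10), a GATA factor known from endocardium and the outflow valves, had 0.42 and 0.43 TPM from 41 and 50 counts. Both libraries held reads of it at a nearly equal low level. On the log2(TPM + 0.1) scale, Gata4 exceeded Gata5 by 6.40 and 6.43 within the libraries, and Gata6 exceeded it by 6.58 and 6.36. These differences understate the fold because of the pseudocount of 0.1 TPM. The 126-base exon for the C-terminal, DNA-binding zinc finger is shown for both genes, because related reads could be shared between paralogs. The capitals mark the 29 bases at which they differ, and the remaining 77.0% are identical.
Gata4 (chr14:63203659-63203784, minus strand): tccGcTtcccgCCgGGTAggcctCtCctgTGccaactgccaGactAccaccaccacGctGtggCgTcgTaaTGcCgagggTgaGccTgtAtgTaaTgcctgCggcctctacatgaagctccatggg
Gata5 (chr2:180328307-180328432, minus strand): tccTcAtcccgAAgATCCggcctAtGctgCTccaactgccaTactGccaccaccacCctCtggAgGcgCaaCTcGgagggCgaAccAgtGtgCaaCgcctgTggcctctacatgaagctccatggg

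The longest identical run between these exons is 24 bases. Over all annotated transcripts, 0.708% of the 31-base words of Gata5 and 0.0255% of those of Gata4 also occurred on the same strand of another gene. On the opposite strand of another gene, 6.56% of the words of Gata5 and 0.0255% of those of Gata4 occurred, and the antisense gene Gata5os shares 258 exonic bases with Gata5.

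Among the related genes of the GATA group, Gata2, known from endothelial and blood cells, was at 8.39 and 8.77 TPM. Gata3 was at 0.35 and 1.28 TPM and Gata1, the erythroid factor, at 0.11 and 0.09 TPM. Gata3, a T cell factor, was higher in replicate 2, the library with the higher T cell and thymus markers. A link between these was not tested. Of the other GATA factors and the other FOG gene, 2 of 4 reached 1 TPM in both libraries. Gata4 exceeded every one of these other genes in both libraries.

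Gata6 (ENSMUSG00000005836.10, chr18:11052064-11085635, plus strand, mm10) had 49.7 TPM in replicate 1 and 43.4 TPM in replicate 2, from 4103 and 4464 counts. Replicate 1 was the higher library, unlike for Gata4. Gata4 and Gata6 were near parity, with log2 ratios of Gata4 to Gata6 of -0.18 in replicate 1 and 0.07 in replicate 2, so the order of this pair turned between the libraries. The full-length coding transcript Gata6-201 held 78.9% and 82.5% of the gene's TPM, and its 3 retained-intron transcripts together 10.6% and 9.91%. A noncoding transcript from the opposite strand, 1010001N08Rik, whose start lies 503 bases from that of Gata6, was at 17.7 TPM in both libraries, from 316 and 385 counts. It had 0.356 and 0.408 of the TPM of Gata6.

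Zfpm2 (ENSMUSG00000022306.9, chr15:40655035-41104592, plus strand, mm10), the FOG2 cofactor gene, had 7.92 and 8.15 TPM from 1136 and 1409 counts. The other FOG gene, Zfpm1, known from blood cells, was at 11.3 and 11.0 TPM and so above Zfpm2 in both libraries, by 0.51 and 0.43 on the log2 scale. Without division by length the order turned, to a log2 ratio of Zfpm2 to Zfpm1 of 0.27. Gata4 exceeded Zfpm2 by 2.45 and 2.46 on that scale, a 5.49-fold difference. Zfpm2-201, which encodes 1151 amino acids, held 77.6% and 81.9% of the gene's TPM. On the same strand within Zfpm2, 3 noncoding gene models (Gm49524, Gm49525 and Gm49526) were between 0.27 and 0.86 TPM.

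**Figure D2:**
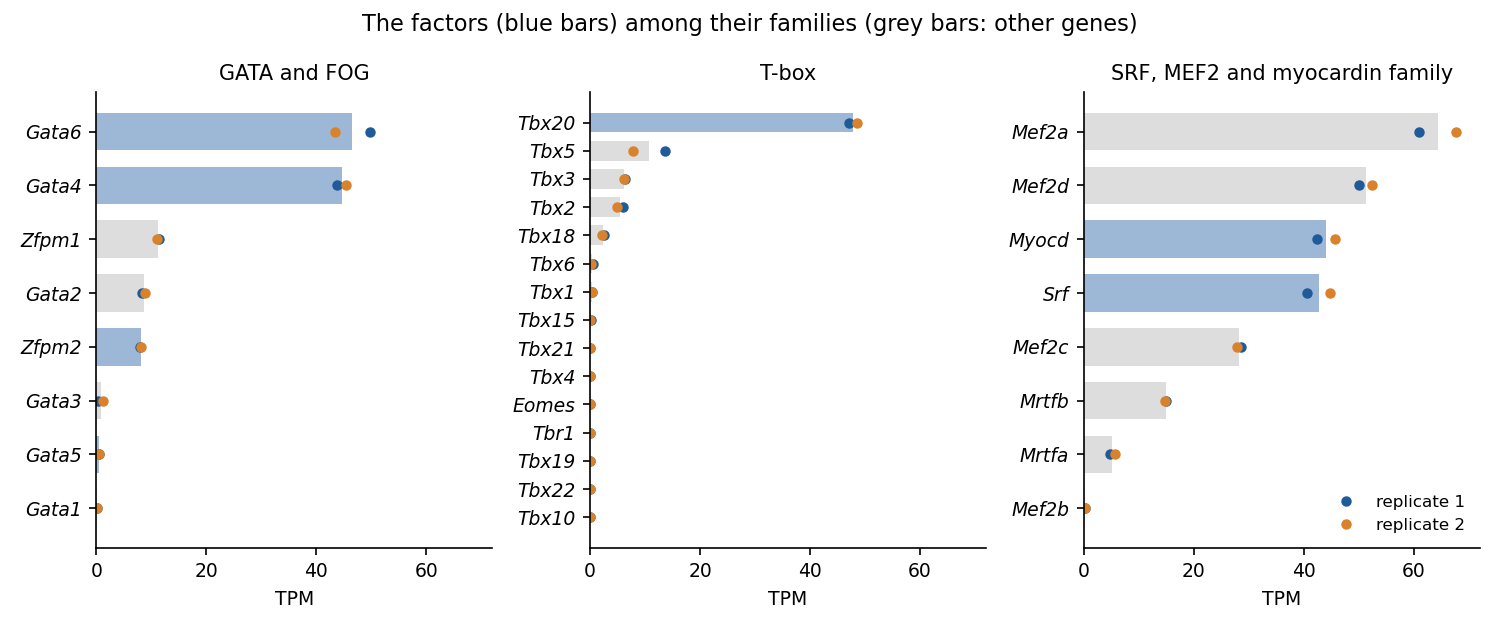
Mean TPM (bars from 0) with both libraries (points, blue replicate 1, orange replicate 2) for 3 families. Blue bars are the factors described here and grey bars other members. Gata4, Gata6 and Tbx20 lead their families, while Mef2a and Mef2d stand above Srf and Myocd.

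Nkx2-5 (ENSMUSG00000015579.5, chr17:26838664-26845009, minus strand, mm10) had 30.6 and 32.4 TPM from 1330 and 1685 counts. The other 6 NK2 genes listed were at 0.02 TPM or less in each library, and 3 of them had no counts. Nkx2-5 stood below Tbx20 in both libraries, by 0.62 and 0.58 on the log2 scale, though in the second tables the mean log2 ratio was -0.06. Nkx2-5 itself was listed there at 41.3 and 44.2 TPM, the largest gap between the sets of tables among the factors, at 1.36 times. The main transcript Nkx2-5-201 was at 29.7 and 31.2 TPM in the first tables and 27.6 and 28.7 TPM in the second. In TPM, the rise lay in Nkx2-5-202, at 0.88 and 1.21 TPM in the first tables and 13.8 and 15.5 TPM in the second. Nkx2-5-201 held 1296 and 1629 counts in the first tables and 1011 and 1234 in the second. The second tables also divided reads by a shorter length, for Nkx2-5-201 in replicate 1 by 1193 bases in place of 1426. The part of each in the gap was not tested. The second tables thus gave 33.3% and 35.1% of the gene's TPM to Nkx2-5-202, a form with an upstream first exon, against 2.88% and 3.74% in the first tables.

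Tbx20 (ENSMUSG00000031965.15, chr9:24718138-24774303, minus strand, mm10), a T-box factor known to hold back Tbx2 in chamber muscle, had 47.1 and 48.5 TPM. At 8775 and 10250 counts it gave the most reads of the 10, from a main transcript of 9091 bases. Of 14 other T-box genes, 4 reached 1 TPM in both libraries. Tbx5 was next, at 13.6 TPM in replicate 1 and 7.75 TPM in replicate 2, followed by Tbx3 at 6.32 and 6.20 TPM, Tbx2 at 6.03 and 4.84 TPM and Tbx18 at 2.61 and 2.10 TPM. Tbx20 exceeded Tbx5 by 1.79 and 2.63 on the log2 scale. Tbx22 and Tbx10 had no counts. Among annotated genes overlapping or starting near the other factors, Gm29824 beside Tbx20 was at 0.04 TPM in both libraries, Gata5os at 0 and 0.02 TPM, and Gm26904 across Srf at 0.02 and 0 TPM. The microRNA gene Mir6976 within Srf had no counts.

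The Tbx20 gene made both of its complete coding transcripts. Tbx20-201, with 445 codons, was at 28.1 and 27.0 TPM, and Tbx20-202, with 297 codons and another last exon, at 17.4 and 18.1 TPM. The short form held 38.3% and 40.2% of their TPM in the first tables and 22.9% and 26.7% in the second. It held 10.5% and 11.3% of their expected counts, since it is 1801 bases long.

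Hand2 (ENSMUSG00000038193.4, chr8:57320983-57324633, plus strand, mm10) had 24.5 TPM in replicate 1 and 32.2 TPM in replicate 2, from 1690 and 2660 counts, and varied most between the libraries. Hand1 (ENSMUSG00000037335.13, chr11:57828705-57832818, minus strand, mm10) had 0 counts in both libraries by both sets of tables. A count of 0 allows up to 3 counts, or 0.0781 TPM in replicate 1 and 0.0652 TPM in replicate 2. Hand2 was therefore at least 314-fold higher than Hand1 in replicate 1 and at least 494-fold higher in replicate 2, for counting error only. The posterior mean TPM of the same tables, which was above 0 here without any count, put Hand1 at 0.16 and 0.14 TPM and Hand2 at 24 and 31.65 TPM, a smaller gap than these bounds. With 1 age and whole tissue, the time at which Hand1 fell to this level, if it was higher before, was not measured.

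Beside Hand2 the opposite strand carries the noncoding gene Hand2os1 (chr8:57281117-57324233, mm10), also known as Upperhand, whose transcription is known to bear on Hand2 in the embryonic heart. Hand2os1 was at 58.0 and 62.8 TPM from 1422 and 1953 counts, above Hand2 in both libraries, by 2.37 and 1.95 times. By counts the order turned, since Hand2 had 1690 and 2660, so the higher level of Hand2os1 came with division by length. The start of this annotated gene, whose TPM is given, lies inside Hand2, 3250 bases from the start of Hand2. In RefSeq, Hand2os1 starts 124 bases from Hand2 on the other strand, and the 300-base promoter windows of both genes share 223 bases. The 250 bases before Hand2 (chr8:57320733-57320982, plus strand, GRCm38 from RefSeq) are shown because the RefSeq models of both genes start beside or within them. The capitals mark GATAA on either strand, as GATAA and as TTATC, 214 to 210 and 172 to 168 bases before the start.
Hand2: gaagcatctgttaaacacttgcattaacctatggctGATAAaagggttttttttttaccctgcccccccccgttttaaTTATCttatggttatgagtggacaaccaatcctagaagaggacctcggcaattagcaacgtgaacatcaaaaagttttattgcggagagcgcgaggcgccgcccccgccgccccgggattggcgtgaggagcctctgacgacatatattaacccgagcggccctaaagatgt

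GATAA on either strand occurs in 25.4% of all 32851 RefSeq windows, so its presence is common. These windows take in 250 bases before and 50 bases after the start. Of the 5 factors whose windows were searched, Hand2 had 2 such matches and Gata5, Tbx20, Nkx2-5 and Srf had none. Gata6, on chr18, was left out of the search. A match is a run of letters and shows no binding. Hand2 and Hand2os1 share 461 exonic bases, and 17.3% of the 31-base words of Hand2 transcripts also occur on the opposite strand of another gene. How the counting used strand is not given in the sources used here, so reads of the shared bases could have been assigned to either gene.

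Srf (ENSMUSG00000015605.6, chr17:46548329-46556175, minus strand, mm10) had 40.6 and 44.8 TPM from 2598 and 3416 counts. Myocd (ENSMUSG00000020542.18, chr11:65176561-65269989, minus strand, mm10) had 42.4 and 45.8 TPM from 5546 and 7251 counts. The pair was nearly equal in both libraries, with log2 ratios of Srf to Myocd of -0.06 and -0.03, and the sign turned to 0.085 with protein-coding transcripts alone. The other coactivators of the myocardin family were lower, Mrtfb at 15.0 and 14.8 TPM and Mrtfa at 4.70 and 5.72 TPM. Myocd exceeded Mrtfa by 3.15 and 2.98 on the log2 scale. In the MEF2 group, the related MADS-box factors, Mef2a was highest at 60.9 and 67.8 TPM and Mef2b lowest at 0.19 and 0.15 TPM.

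The promoter of Srf holds the binding letters of its own product. The 237 bases before the annotated gene (chr17:46556176-46556412, minus strand, GRCm38 from RefSeq) are shown with 2 CArG boxes in capitals, 82 to 73 and 62 to 53 bases before the RefSeq start.
Srf: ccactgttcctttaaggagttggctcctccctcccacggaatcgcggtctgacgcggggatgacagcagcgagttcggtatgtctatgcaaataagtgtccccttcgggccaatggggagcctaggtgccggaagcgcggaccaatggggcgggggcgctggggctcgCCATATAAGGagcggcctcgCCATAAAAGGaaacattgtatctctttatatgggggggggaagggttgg

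A CArG box on either strand occurs in 1.63% of all 32851 windows. The windows of Gata5, Hand2, Tbx20 and Nkx2-5 held none, which says only that these letters are not in those windows. The same search found TATAAA in the Srf window, inside 13.6% of all windows, and no GGTGTGA, a T-box core that occurs in 3.98% of windows, in any of the 5. AAGTG, the core of NK2 sites, occurred in Hand2 and Srf and in 46.4% of all windows, and the E-box CANNTG in Gata5, Hand2 and Nkx2-5 and in 72.3% of all windows.

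By both sets of tables, most coding RNA of Myocd contained an exon of 144 bases. This exon 11 of 14 (chr11:65184488-65184631, minus strand, mm10) adds 48 codons, so that Myocd-203 encodes 983 amino acids and Myocd-202, without it, 935. It is shown because it separates the leading forms.
Myocd exon 11: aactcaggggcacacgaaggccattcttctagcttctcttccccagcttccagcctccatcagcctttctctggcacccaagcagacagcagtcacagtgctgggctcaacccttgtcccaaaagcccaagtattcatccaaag

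Myocd-203 was at 26.8 and 31.4 TPM and Myocd-202 at 8.65 and 6.70 TPM. Together with Myocd-201, which also has the exon, forms with it held 75.6% and 82.4% of the complete coding TPM in the first tables and 92.9% and 93.4% in the second. Both sets of tables and both libraries put the forms with the exon above the form without it. Noncoding Myocd transcripts were at 6.02 and 5.08 TPM for Myocd-205 and 0.92 and 1.75 TPM for Myocd-206.

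**Figure D3:**
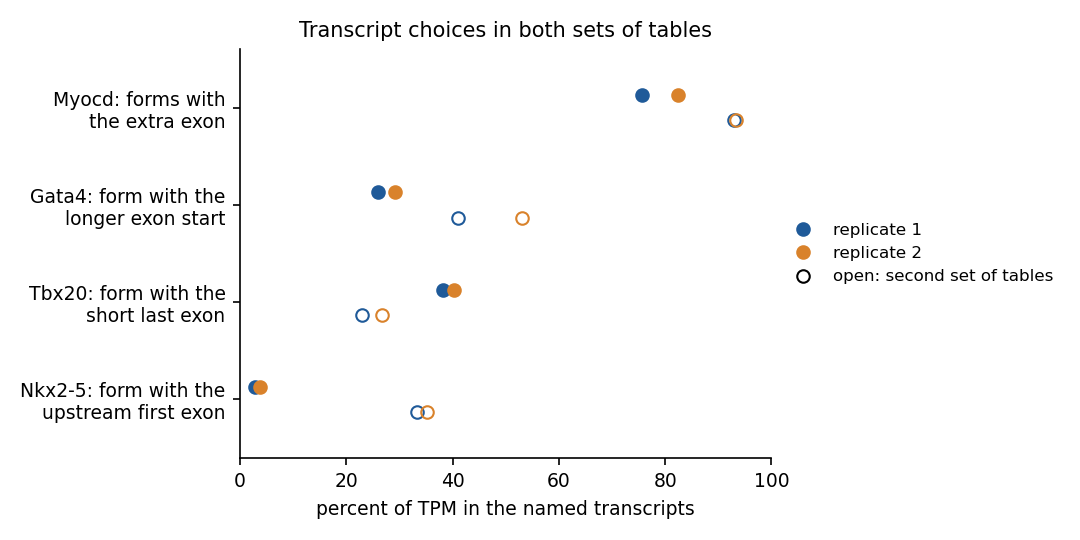
Percent of TPM in named transcripts of Myocd, Gata4, Tbx20 and Nkx2-5, filled points for the first set of tables, open for the second, blue replicate 1, orange replicate 2. The forms with the Myocd exon lie between 75.6% and 93.4%, while the Nkx2-5 upstream exon moves from 2.88% and 3.74% to 33.3% and 35.1%.

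The libraries were then compared factor by factor. The ratio of counts, replicate 2 over replicate 1 after scaling, is given in log2 with an exact 95% Clopper-Pearson interval, which covers counting error only. No factor of the 9 with at least 10 counts in each library passed 2-fold, and 2.53% of the 15950 genes tested did. The interval left out equality for 5 of 9 factors, against 30.7% of all genes tested. Of these, 3 were higher in replicate 2 (background 15.0%) and 2 in replicate 1 (background 15.7%). The interval narrows as counts rise, and the background takes in every gene from 10 counts up. The shares are therefore not matched for depth, here or for the lists below, and no excess is read from them. The largest of the ratios, that of Hand2, lay well short of 2-fold.

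Hand2 was 1.30-fold higher in replicate 2, at a log2 ratio of 0.37 (0.29 to 0.46). Srf followed at 0.11 (0.04 to 0.19) and Myocd at 0.11 (0.06 to 0.16). Gata6 was lower in replicate 2, at -0.16 (-0.22 to -0.10), and so was Tbx20, at -0.06 (-0.10 to -0.01). The intervals of Nkx2-5, Gata4, Zfpm2 and Gata5 held 0, and that of Gata5 ran from -0.62 to 0.64 with its 41 and 50 reads. Hand2os1 was at 0.18 (0.08 to 0.28), lower than the Hand2 ratio.

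**Figure D4:**
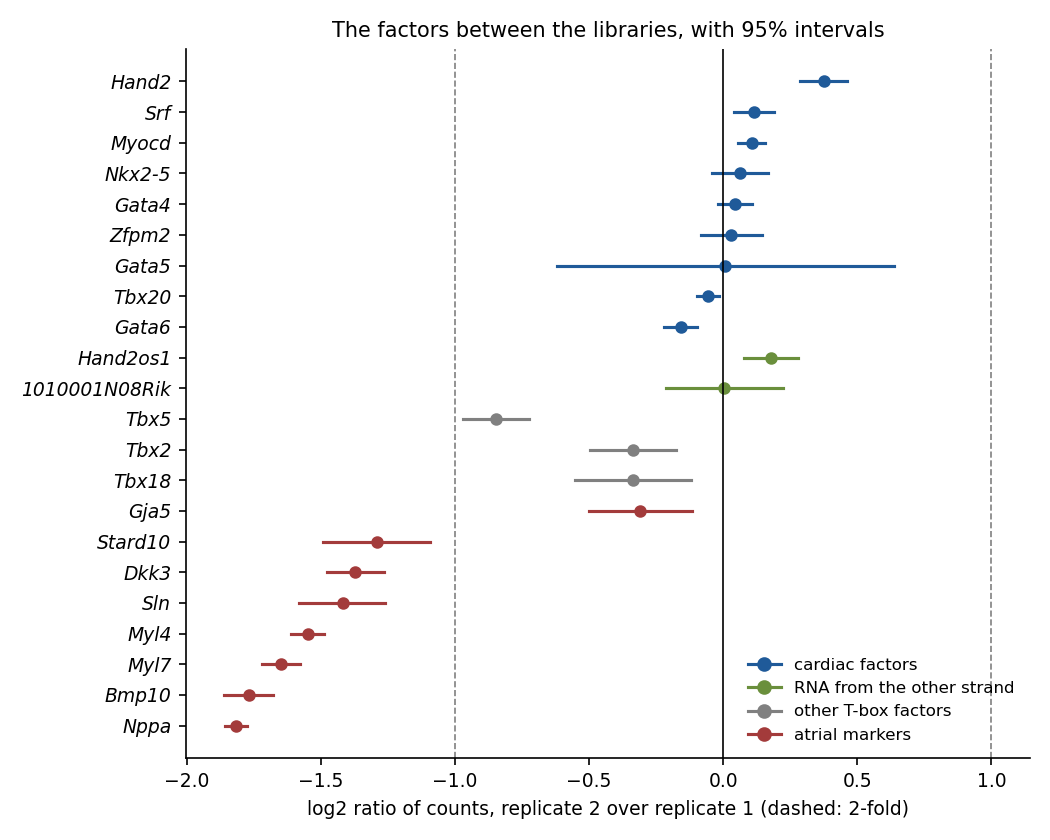
Log2 ratio of counts, replicate 2 over replicate 1, with 95% intervals from counting, for 9 factors, the noncoding genes beside Hand2 and Gata6, the T-box genes Tbx5, Tbx2 and Tbx18, and 8 atrial markers. The 9 factors lie between -0.16 and 0.37, inside the dashed 2-fold lines, and 7 of the 8 atrial markers lie beyond -1.

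All 8 atrial markers were lower in replicate 2, from -0.31 for Gja5 to -1.82 for Nppa, with a median of -1.48. The interval left out equality for all 8 (background 15.7%). Of the 6 other T-box genes with a ratio, the interval placed 4 lower in replicate 2 (background 15.7%). They were Tbx5 at -0.85 (-0.97 to -0.72), Tbx2 and Tbx18 at -0.34, and Tbx6, below 1 TPM, at -1.41 (-2.58 to -0.32). The intervals of Tbx3, at -0.12, and Tbx1, at 0.06, held 0. The interval placed 4 of 5 fibroblast markers lower in replicate 2 (background 15.7%), with Pdgfra at -0.42. The interval of Tcf21, at -0.16 (-0.37 to 0.06), held 0. Of 5 epicardial markers, the interval placed 1 higher in replicate 2 (background 15.0%), Wt1 at 0.47. It placed 2 lower (background 15.7%), Tbx18 at -0.34 and Msln at -0.19. Of 5 smooth muscle markers, it placed 1 higher (background 15.0%), Acta2 at 0.39. It placed 3 lower (background 15.7%), Cnn1 at -0.77, Tagln at -0.37 and Myh11 at -0.33. All 10 T cell and thymus markers had a higher TPM in replicate 2. The part of these cell types in the ratios of the factors was not tested.

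Genes with textbook regulation by these factors were read from short lists. All 11 genes listed for GATA4 and NKX2-5 reached 1 TPM in both libraries, from 6.11 TPM for Gja5 to 10130 TPM for Myh6 on average. Of the 10 muscle genes listed for SRF and myocardin, 9 did, from Cnn1 at 2.76 TPM to Actc1 at 7250 TPM on average, and Lmod1 was at 1.30 and 0.77 TPM. Of the 7 immediate early genes listed for SRF, 5 did, and the lowest was Egr2 at 0.23 and 0.30 TPM. Fos was at 1.60 and 2.07 TPM and Egr1 at 3.52 and 3.59 TPM, so Srf itself, at 40.6 and 44.8 TPM, was the highest of that list. All 7 had a higher TPM in replicate 2, and the interval left out equality for 3 of 7, Srf, Fosb and Ier2, against 15.0% of all genes tested in that direction. Srf is itself 1 of the factors, so its call repeats the ratio given above, and Fosb had only 17 and 58 counts. The muscle genes listed for SRF and myocardin were split. Of these 10, the interval placed 4 higher in replicate 2 (background 15.0%) and 5 higher in replicate 1 (background 15.7%). Their median log2 ratio was -0.09. Of the 11 genes listed for GATA4 and NKX2-5, the interval placed 3 higher in replicate 2 (background 15.0%) and 6 higher in replicate 1 (background 15.7%), Nppa among the latter at -1.82. Their high and low levels are set beside the factors without a test of regulation, which a single group cannot give.

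Among 22 other regulators of heart development, 18 reached 1 TPM in both libraries. Fhl2, a cofactor of muscle transcription, was highest at 658 and 833 TPM, and Mesp1, an early mesoderm factor, was lowest at 0.03 and 0 TPM. Isl1, the marker of second heart field progenitors, was at 0.07 and 0.09 TPM. Hopx, a homeodomain-only protein gene of heart muscle, was at 219 and 210 TPM and Smyd1, a muscle methyltransferase, at 147 and 150 TPM, both above all 10 factors. Tead1, which binds muscle promoters, was at 60.9 and 63.0 TPM.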

How the data were processed

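The deposited gene and transcript tables give, per the file headers, expected counts, 2 estimates of TPM and, as a percent, each transcript's part of its gene, and a second transcript table gives estimated counts and TPM from a separate estimate. The authors' readme names mm10 and annotation M21, while no tool used upstream is given in the sources used here. The 55536 gene identifiers matched GENCODE M21, and spike-in and other rows, 0.518% and 0.531% of counts, were left out.

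Expected counts were rounded, and the ratio between the libraries was computed from library sizes scaled by TMM in edgeR 4.0.16, with a minimum of 10 counts in each library. The script was tested on simulated data. No p-value was computed, since 1 group of 2 libraries allows none. Ratios of related genes used log2 of TPM with a pseudocount of 0.1. The mm10 reference is C57BL/6J sequence, so reads of the CAST/EiJ allele met a reference of the other strain, and the effect on levels was not measured. Alternatives were other scalings, DESeq2 size factors, spike-ins, thresholds and transcript sets.

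Named were all 10 factors, the highest and lowest gene of each list, related genes at 1 TPM or more, and annotated genes overlapping a factor or starting within 5 kb of its start; others were named after their values were seen, and 1 gene of the lists is not reported here. The members and lists were chosen with earlier results of these data known. Promoter sequences come from RefSeq (GRCm38) and exon sequences from GENCODE M21 transcripts. Promoter windows of 5 of the 10 factors were used, and Gata6, on chr18, was left out of that search.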

Additional observations from a re-analysis of the deposited data

How the results depend on the processing

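Detection of 8 factors at 1 TPM held under every alternative run except 1 count in both libraries, which gave 9. Neighbours that did not overlap numbered 4, and 4 to 6 under the alternatives. The pairs themselves changed, since Srf and Nkx2-5 overlapped in the second set of tables. No factor passed 2-fold under any scaling, and 5 factors had an interval without equality under each, though with total counts Gata4 replaced Tbx20. Of 9 ratios of related genes, 5 had the first gene higher in both libraries, and 5 to 6 under the alternatives. Hand2 over Hand1, also planned, was left out of this count and is given above as a bound. Zfpm2 over Zfpm1 turned to 0.27 with counts not divided by length, and Srf over Myocd to 0.085 with protein-coding transcripts only; the cause was not tested. In the second set of tables forms with the Myocd exon held 93.1% in place of 79.0%, the longer Gata4 form 47.0% in place of 27.6%, and the short Tbx20 form 24.8% in place of 39.2%. By expected counts in place of TPM, a choice added after seeing the data, the Tbx20 share was 10.9% in place of 39.2%, by construction because the form is shorter. Levels of the 9 factors with counts moved to between 0.787 and 1.36 of the main value, and Hand1 was at 0.15 TPM by posterior mean TPM in place of 0. Leaving out each library gave no value for the neighbour order or the ratios between libraries, which need both. No paired analysis was possible because both libraries form 1 group. Depth limits Gata5, at 41 and 50 counts, and Hand1, at 0.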
